A study of Mus musculus with 14 samples.

Results

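The data described here are those of the pair of genes Spp1, which encodes the secreted matrix protein osteopontin, and Cd44, which encodes a cell-surface receptor for osteopontin and hyaluronan. They are 2 of the 54532 genes listed for mouse livers and 2 of the 16481 genes listed for mouse pancreatic stellate cells (PSCs), and each was found once in both tables. The pair was chosen with the Yoda1 and DMSO values of the PSCs and the group values of the livers already known, so the levels and differences of Spp1 and Cd44 are given as a description, with no p-value.

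The study asked how the mechanically gated channels PIEZO1 and TRPV4 act in pancreatic ductal adenocarcinoma. Livers came from mice aged 8 to 12 weeks whose pancreas tail had been injected with 100000 KPCY cells 20 days before collection. KPCY is a mouse pancreatic cancer line that carries a yellow fluorescent protein and keeps its own Trpv4 gene in every host. The 2 WT livers came from mice that the methods call WT and describe as Piezo1 fl/fl, the 3 TRPV4-KO livers from Trpv4-/- mice that lack the channel in every host cell, and the 3 GSK219 livers from WT mice given the TRPV4 antagonist GSK2193874 by daily gavage at 10 mg/kg in 6% cavitron. Whether the WT controls received the carrier is not given in the sources used here. Mouse PSCs were cultured on Matrigel for 3 days in medium with 5% serum, and 3 preparations were each given DMSO or 25 µM Yoda1, an agonist of PIEZO1. The methods give 24 hours of Yoda1 and a supplemental legend 72 hours, and the 2 statements were not reconciled here.

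Osteopontin is an acidic phosphoprotein, one of a family of small integrin-binding glycoproteins, that cells deposit in matrix and secrete as a cytokine. It binds integrins through an arginine-glycine-aspartate (RGD) site and through neighbouring residues exposed by proteases, and it is also a ligand of CD44, whose best-known ligand is the glycosaminoglycan hyaluronan. In the liver Spp1 is known from bile duct cells, activated stellate cells and macrophages, and in pancreatic cancer from tumor cells, macrophages and fibroblasts. CD44 is carried by most leukocytes, by fibroblasts and by many tumor cells, and alternative splicing of its variable exons yields isoforms of different length.

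Spp1 (ENSMUSG00000029304) lies at chr5:104435118-104441050 on the plus strand of GRCm38, with 1648 bases of exon, and Cd44 (ENSMUSG00000005087) at chr2:102811141-102901665 on the minus strand, with 6776 bases of exon. GENCODE M21 lists 7 Spp1 transcripts, all protein coding. It lists 9 Cd44 transcripts, of which 8 are protein coding, with 9 to 19 exons and 365 to 780 codons. All reads of a gene were counted together, so the values below do not separate the Cd44 isoforms or the secreted and truncated forms of osteopontin. The stretch of coding sequence shown first holds the integrin-binding site that makes osteopontin a ligand. It covers chr5:104439463-104439528 in exon 7 of Spp1-202, and the capitals mark the codons of the RGD site, residues 145 to 147 of 295.
Spp1 RGD site: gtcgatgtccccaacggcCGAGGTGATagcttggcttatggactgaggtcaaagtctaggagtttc

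The 250 bases before each start site are shown because genes of factors that bind the Spp1 promoter are followed below. Both are RefSeq promoters on GRCm38.p6, the Spp1 one from chr5:104434861-104435110 and the Cd44 one from chr2:102901666-102901915, each written along its own gene. For Spp1 the table held 2 starts and the first was used. Capitals mark every match, on either strand, to 6 motifs, namely TGTGGT of Runx factors, TGANTCA of AP-1, AGGAAG of Ets factors, GGGCGG of Sp1, TCAAGGTCA of estrogen-related receptors and GACCACCCA of Gli factors.
Spp1 promoter: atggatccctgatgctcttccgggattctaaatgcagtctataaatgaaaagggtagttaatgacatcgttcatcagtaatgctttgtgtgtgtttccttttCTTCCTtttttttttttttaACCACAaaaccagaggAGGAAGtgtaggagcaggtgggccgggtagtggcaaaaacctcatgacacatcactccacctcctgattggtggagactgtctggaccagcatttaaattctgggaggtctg
Cd44 promoter: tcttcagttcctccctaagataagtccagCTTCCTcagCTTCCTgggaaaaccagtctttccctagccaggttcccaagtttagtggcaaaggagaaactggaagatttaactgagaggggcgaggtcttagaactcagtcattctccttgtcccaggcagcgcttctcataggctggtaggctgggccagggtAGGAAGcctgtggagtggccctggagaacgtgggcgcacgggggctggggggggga

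The Spp1 window held 1 Runx match, at positions −128 to −123 from the start and on the opposite strand, and 2 Ets matches, at −148 to −143 on the opposite strand and at −112 to −107. The Cd44 window held 3 Ets matches, the nearest at −56 to −51, and none of the other 5 motifs, and no match overlapped another. Among 32851 mouse promoters of the same length, 14.0% held the Runx letters, 29.5% the Ets letters, 6.75% the AP-1 letters, 32.7% the Sp1 letters, 0.387% the estrogen-related receptor letters and 0.225% the Gli letters. The Spp1 window was poorer in G and C, at 43.6%, than the Cd44 window, at 56.4%, with a median of 52.4% over all promoters. These matches describe letters and not occupied sites.

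Livers were sequenced to between 15567031 and 17395299 counts, and the PSC libraries held between 27312894 and 39070539 reads when whole reads were recovered from the deposited values. As a check of the knockout, Trpv4 had 43 and 53 counts in the WT livers, 15, 5 and 23 in the TRPV4-KO livers, and 20, 30 and 36 in the GSK219 livers. The deleted stretch of Trpv4 is not given in the sources used here, so counts outside it could remain. Reads of Xist marked WT 1, TRPV4-KO 3 and GSK219 3, and reads of Y-linked genes marked the other 5 livers. TRPV4-KO 3 stood apart from the other TRPV4-KO livers in Cd44 and in macrophage markers, and results that change without it are given as such. The hepatocyte markers Alb, Apoa1, Ttr, Cyp3a11 and Ass1 were abundant in every liver. In the PSC libraries 9 of the 12 stellate cell and fibroblast markers had reads, led by Col1a1, Acta2, Vim and Col3a1, while Lrat, Gfap and Colec11 were not listed. All 9 markers of ductal and tumor epithelium had reads there too, with summed levels of 766 to 1151 CPM (counts scaled to library size) with DMSO and 734 to 1580 CPM with Yoda1, and their part in the results was not tested.

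In PSCs Spp1 was among the abundant transcripts and was higher with Yoda1 in each preparation. Values for PSCs are read counts divided by a size factor for each library, referred to as normalised read counts. With DMSO, Spp1 had normalised read counts of 6681, 8591 and 9345 in preparations 1, 2 and 3. With Yoda1 it had 20498, 31794 and 29113. Every Yoda1 library was above every DMSO library, and preparation 1 was lowest under both treatments. The mean was 8206 ± 1373 (SD, n = 3) under DMSO and 27135 ± 5902 (SD, n = 3) under Yoda1. Within preparations the Yoda1 level was 3.07, 3.70 and 3.12 times the DMSO level. On the log2 scale with a pseudocount of 1, the difference was 1.71 with a standard error (SE) of 0.21. It stayed between 1.57 and 1.90 when any 1 of the 6 libraries was left out.

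Per kilobase of exon, Spp1 averaged 4979 ± 833 normalised read counts (SD, n = 3) in the DMSO libraries, against 16465 ± 3581 (SD, n = 3) in the Yoda1 libraries. Its place among all genes by this level was 309, 235 and 205 in the DMSO libraries. In the Yoda1 libraries it was 64, 38 and 42, nearer to the top in each treated culture. These levels rested on 5358 to 9258 recovered reads with DMSO and 21791 to 38635 with Yoda1, so counting error was small beside the spread between preparations. The summed level of stellate cell and fibroblast markers, led by Col1a1, was 21963 to 22815 CPM with DMSO and 11137 to 13494 CPM with Yoda1, and 4 of the 9 listed genes (Col1a1, Col3a1, Vim and Acta2) fell by limma, where 1.15% of all genes were called lower. Reln and Des had positive log2 differences, of 1.56 (SE 0.39) and 0.070 (SE 0.26), that did not pass the test. The epithelial sum was highest in preparation 3 under both treatments, and Spp1 was highest in preparation 3 with DMSO and in preparation 2 with Yoda1. Of the monocyte and macrophage markers 5 of 7 had reads in the PSCs, led by Lyz2 at 51.9 to 74.4 CPM, while Ly6c2 and Ccr2 were not listed, and their sum was 77.3 to 83.4 CPM with DMSO and 76.4 to 120 CPM with Yoda1. All 5 lipid-associated macrophage markers had reads, with sums of 214 to 263 CPM and 251 to 271 CPM. Of the 6 Kupffer cell markers, Vsig4, Marco and Cd5l had reads (sums of 3.11 to 3.92 CPM and 2.07 to 3.35 CPM) and Clec4f, Timd4 and Adgre1 were not listed. Of the 11 neutrophil markers only Mpo was listed, at 0.102 to 0.364 CPM. Macrophages are a known source of Spp1, and the part of any of these cells in its level was not tested.

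Cd44 varied little among the DMSO libraries and was slightly lower with Yoda1. With DMSO it had normalised read counts of 21047, 21335 and 21640. With Yoda1 it had 17187, 17425 and 20379. The groups did not overlap, although the Yoda1 library of preparation 3 came near the DMSO range. The means were 21341 ± 297 (SD, n = 3) and 18330 ± 1779 (SD, n = 3), and within preparations the Yoda1 level was 0.817, 0.817 and 0.942 times the DMSO level. The log2 difference was −0.22 (SE 0.09), with −0.30 to −0.18 when 1 library was left out. Among all 15145 genes tested, 14.9% lay above DMSO and 15.1% below DMSO in all Yoda1 libraries, and because the pair was chosen on this contrast nothing is read from its own place there.

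**Figure D1:**
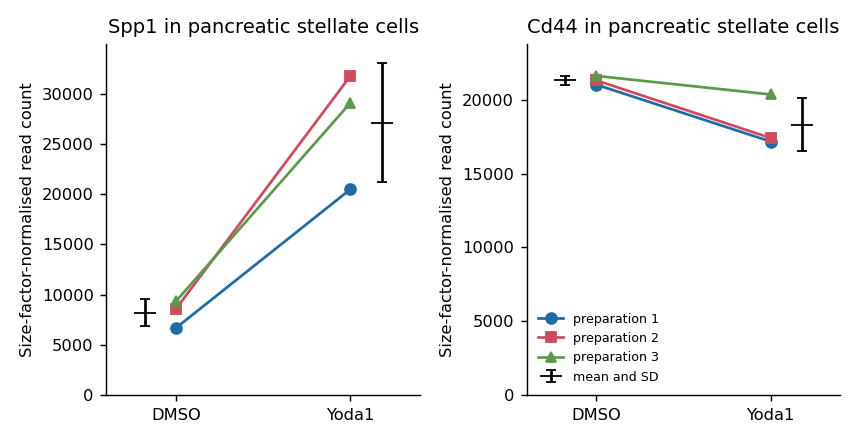
Size-factor-normalised read counts of Spp1 (left) and Cd44 (right) in PSCs given DMSO or Yoda1; each coloured line joins the libraries of 1 preparation, and black bars are the mean and SD of 3 libraries. Spp1 runs from 6681 to 9345 with DMSO and from 20498 to 31794 with Yoda1, and Cd44 from 21047 to 21640 and from 17187 to 20379.

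The ratio of ligand to receptor transcript moved accordingly. Per kilobase, there were 1.31, 1.66 and 1.78 Spp1 reads for each Cd44 read in preparations 1, 2 and 3 with DMSO. With Yoda1 there were 4.90, 7.50 and 5.87. Preparation 1 had the lowest ratio under both treatments, and the larger part of the shift came from Spp1.

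Cd44 was the third most abundant osteopontin receptor gene of the DMSO-treated PSCs. Per kilobase, Itgb1 and Itga5, the subunits of the classical fibronectin receptor, had means of 17681 and 9878 normalised read counts, and Cd44 had 3149. Itgav, the alpha subunit of the RGD receptors of the alpha-v group, had 1883 and its partner Itgb5 had 1403. The DMSO ranges of these 5 genes did not overlap. The subunits Itgb6 (175), Itga9 (174) and Itgb3 (173) followed at levels that did not differ beyond their spread. Itga8 (6.3) and the leukocyte integrin subunit Itga4 (1.8) were near the bottom. Cd44 was again the third with Yoda1, at 2705 against 6630 for Itga5 and 1596 for Itgav.

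**Figure D2:**
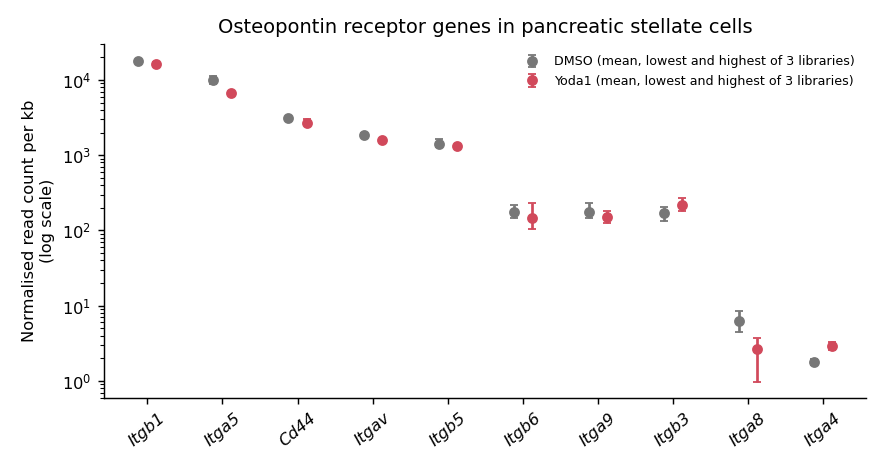
Levels of Cd44 and of 9 integrin subunit genes in PSCs, as normalised read counts per kilobase of exon on a log axis, ordered by the DMSO mean; points are means and bars run from the lowest to the highest of 3 libraries. Cd44 is the third in order, below Itgb1 and Itga5 and above Itgav, with both treatments.

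Around the pair, a list of 60 genes of the osteopontin and CD44 pathways was examined, of which 50 were tested in the PSCs. Hyaluronan synthase 2 (Has2), the membrane protease MMP14 that sheds CD44 (Mmp14) and transglutaminase 2 (Tgm2), which crosslinks osteopontin, fell with Yoda1. These 3 passed an adjusted p under 0.05 by limma, and no gene of the list was called higher. Of all genes tested, 1.2% were called higher and 1.15% lower. The list held 19 genes with an unadjusted p under 0.05, 7 higher and 12 lower, against 20.9% of all genes. Its median log2 difference was −0.10, beside −0.01 over all genes.

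Has2 makes hyaluronan, the main ligand of CD44. It had normalised read counts of 8118, 8370 and 8303 with DMSO and 5587, 5768 and 6052 with Yoda1. The log2 difference was −0.51 (SE 0.06, adjusted p = 0.031, limma). Has1, a minor synthase, was also lower in every Yoda1 library, at 219, 245 and 213 against 359, 363 and 249, but did not pass (adjusted p = 0.18, limma). Mmp14 had 33277, 35035 and 34310 with DMSO and 20521, 19319 and 16479 with Yoda1, a log2 difference of −0.87 (SE 0.10, adjusted p = 0.028, limma). Tgm2 had 11953, 10651 and 12584 with DMSO and 6604, 6523 and 7564 with Yoda1, a log2 difference of −0.77 (SE 0.10, adjusted p = 0.034, limma). In all 3 the groups were well apart. Leaving out any library but Yoda1 3 left no call in the list, and leaving out Yoda1 3 left Has2 and Mmp14. Calls over all genes fell too, from 181 higher and 174 lower with all libraries to 50 and 65 without Yoda1 3. Without any other library they were 0 to 31 higher and 0 to 22 lower.

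Same-numbered PSC libraries come from 1 preparation, and a fit with preparation as a block called 2 of the 50 genes higher and 4 lower, beside 2.11% higher and 1.89% lower among all genes. The higher ones were Itga4 and Lyve1, and the lower ones Has2, Mmp14, Tgm2 and Tnfaip6. Lyve1, a hyaluronan receptor related to CD44, had normalised read counts of 11.2, 13.5 and 8.07 with DMSO and 43.3, 55.1 and 27.3 with Yoda1. Its log2 difference of 1.82 (SE 0.30) was the largest of the list, at an adjusted p of 0.051 by limma without the block. Itga4, a subunit of the alpha-4 integrins that bind osteopontin, had 27.4, 22.4 and 25.2 with DMSO and 46.1, 36.2 and 39.3 with Yoda1 (log2 difference 0.67, SE 0.12, adjusted p = 0.059, limma). Tnfaip6, which encodes the hyaluronan-binding protein TSG-6, had 416, 468 and 532 with DMSO and 289, 323 and 394 with Yoda1.

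By role, 7 of the 9 integrin subunits had a negative difference and none was called by limma without the block. Itga5 had normalised read counts of 43426 to 55954 with DMSO and 32498 to 32828 with Yoda1 (log2 difference −0.57, SE 0.11, adjusted p = 0.064, limma), and Itgav a log2 difference of −0.24 (SE 0.07, adjusted p = 0.14, limma). Of the enzymes that cut, phosphorylate or crosslink osteopontin, 1 of 6 was called by limma, Tgm2. Mmp3, stromelysin 1, which cleaves osteopontin near its RGD site, had 446, 453 and 406 with DMSO and 864, 1482 and 842 with Yoda1 (log2 difference 1.24, SE 0.24, adjusted p = 0.064, limma). Acp5, the phosphatase that removes phosphate from osteopontin, had a log2 difference of 0.30 (SE 0.07, adjusted p = 0.097, limma).

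Of the genes of factors that bind the Spp1 promoter, all 7 tested had a difference below 0, beside a median of −0.006 over all genes. None was called by limma, with or without the block. Those of Sp1, Vdr and Esrra were smaller than their SE, and Fos had the largest, −0.42 (SE 0.16). Runx2, whose motif is in the Spp1 window above, had 1858 to 2034 with DMSO and 1584 to 1749 with Yoda1 (log2 difference −0.24, SE 0.07). Ets1 had a log2 difference of −0.23 (SE 0.13) and Sp1 of −0.05 (SE 0.07). Gli1 was too low to be tested, at 8.07 to 15.0 with DMSO and 2.41 to 5.76 with Yoda1.

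Among other ligands and partners of CD44 none of 7 was called by limma. Hgf, the growth factor whose signal through MET uses CD44 as a co-receptor, had 82.3, 98.7 and 107 with DMSO and 145, 163 and 130 with Yoda1 (log2 difference 0.60, SE 0.13, adjusted p = 0.086, limma). Slc7a11, the cystine transporter that a CD44 variant stabilizes, had a log2 difference of 0.58 (SE 0.16, adjusted p = 0.13, limma). Vcan, a large proteoglycan, and Mif, a cytokine that signals through CD74 and CD44, had −0.42 (SE 0.14) and 0.24 (SE 0.14). The linkers of CD44 to actin, Msn (−0.13, SE 0.08) and Ezr (0.06, SE 0.21), the sheddase Adam10 (−0.15, SE 0.10) and the splicing regulators Khdrbs1 (−0.09, SE 0.11) and Esrp2 (−0.24, SE 0.17) showed no call. No other gene of the osteopontin family (Ibsp, Dmp1, Dspp or Mepe) was listed in the PSCs, so Spp1 was the only one measured there.

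**Figure D3:**
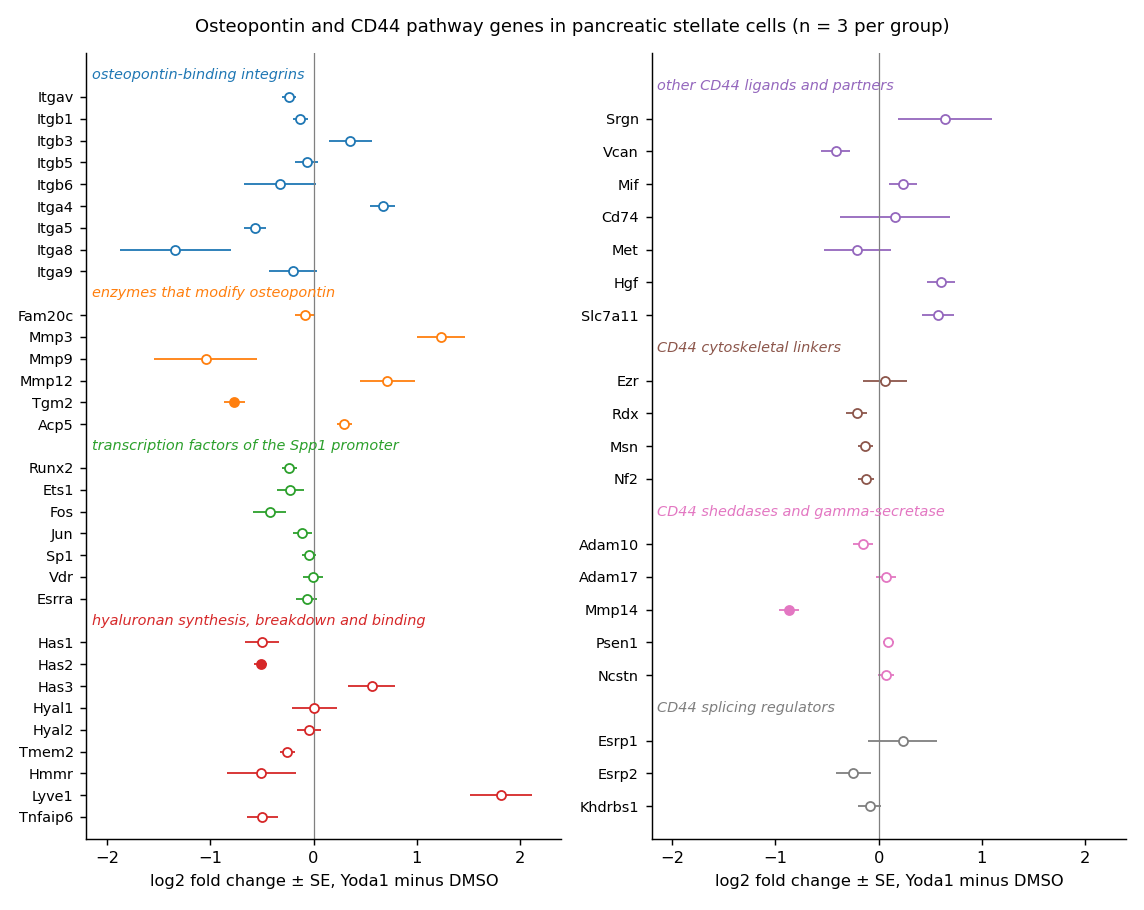
Log2 difference (Yoda1 minus DMSO) with its SE for the 50 tested genes of the osteopontin and CD44 pathways in PSCs, 3 libraries per group, in groups by role; filled points passed an adjusted p under 0.05 by limma. The filled points are Tgm2, Has2 and Mmp14, all below 0.

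In the livers Spp1 was a transcript of moderate level whose groups overlapped. Levels in livers are CPM scaled by TMM. The WT livers had 74.5 and 33.8 CPM, the TRPV4-KO livers 38.3, 42.5 and 43.8 CPM, and the GSK219 livers 22.9, 44.2 and 32.2 CPM. WT 1 alone was high, and WT 2 was below every TRPV4-KO liver. The means were 54.2 ± 28.8 CPM (SD, n = 2), 41.5 ± 2.85 CPM (SD, n = 3) and 33.1 ± 10.7 CPM (SD, n = 3), and the order WT, TRPV4-KO, GSK219 was not beyond the spread for any neighbours. The log2 difference of WT minus TRPV4-KO was 0.38 (SE 0.35), of WT minus GSK219 0.71 (SE 0.35), and of TRPV4-KO minus GSK219 0.33 (SE 0.31). Without WT 1, the first turned to −0.28 and the second became 0.03, and without WT 2 they were 0.86 and 1.17. The third was 0.12 without GSK219 1 and 0.59 without GSK219 2. Both comparisons with WT share the WT livers.

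Cd44 differed from Spp1 in that both WT livers stood above all others. The WT livers had 41.4 and 28.8 CPM, the TRPV4-KO livers 12.1, 10.2 and 22.2 CPM, and the GSK219 livers 8.87, 21.6 and 26.2 CPM. The lowest WT liver and the highest GSK219 liver were close. The means were 35.1 ± 8.91 CPM (SD, n = 2), 14.8 ± 6.46 CPM (SD, n = 3) and 18.9 ± 8.96 CPM (SD, n = 3), resting on 141 to 670 counts per liver. The log2 difference of WT minus TRPV4-KO was 1.24 (SE 0.47) and stayed between 0.97 and 1.66 when 1 liver was left out. That of WT minus GSK219 was 0.90 (SE 0.47), with 0.56 to 1.21. TRPV4-KO and GSK219 overlapped, with −0.34 (SE 0.43), and this value moved between −0.76 without TRPV4-KO 3 and −0.035 without GSK219 3. Among all 15118 genes tested, 17.7% were higher in both WT livers than in every TRPV4-KO liver and 15.6% than in every GSK219 liver, and nothing is read from the place of Cd44 among them.

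Within livers that carried Xist reads, Cd44 was 0.89 higher on the log2 scale in WT than in TRPV4-KO and 0.66 higher than in GSK219. In those with Y-linked reads the differences were 1.37 and 1.05. The direction was thus the same in both. For Spp1 the WT minus TRPV4-KO difference was 0.77 in the former and −0.25 in the latter, each side resting on 1 or 2 livers.

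**Figure D4:**
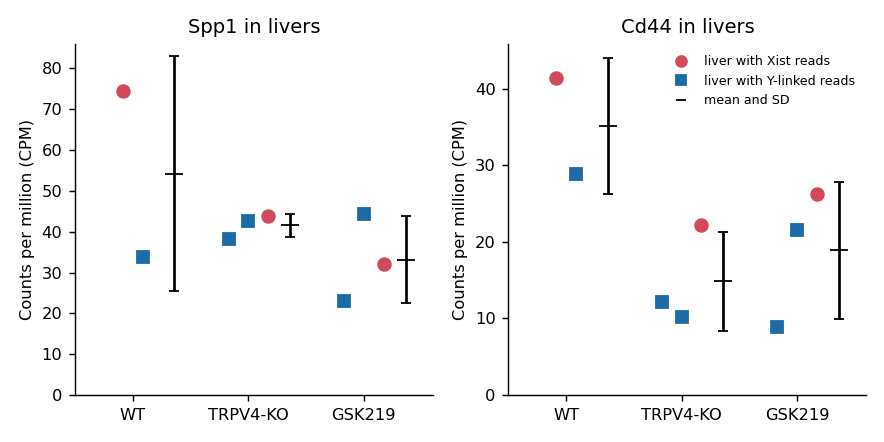
CPM of Spp1 (left) and Cd44 (right) in each liver by group, with circles for livers with Xist reads, squares for livers with Y-linked reads, and black bars for the mean and SD (n = 2, 3 and 3). Spp1 of WT 1, at 74.5 CPM, stands above all other livers while WT 2 lies among them, and both WT values of Cd44 lie above the rest.

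Monocyte and macrophage, Kupffer cell, neutrophil and stellate cell markers were summed higher in both WT livers than in any other, as Cd44 was, while lymphocyte markers were not. The summed level of 7 monocyte and macrophage genes was 706 and 568 CPM in the WT livers, 256, 188 and 386 CPM in the TRPV4-KO livers, and 186, 334 and 450 CPM in the GSK219 livers. TRPV4-KO 3 and GSK219 3 were the highest of their groups in this sum, as they were in Cd44. Of these 7 genes all were higher in WT than in TRPV4-KO and in GSK219 and none was called by edgeR. The sum of 6 Kupffer cell markers was 1077 to 1206 CPM in WT, 277 to 649 CPM in TRPV4-KO and 313 to 743 CPM in GSK219, and that of 11 neutrophil markers was 64.2 to 78.0 CPM, 1.58 to 7.64 CPM and 2.58 to 7.05 CPM, with 3 of the 10 neutrophil genes tested called higher in WT than in TRPV4-KO by edgeR, where 0.291% of all genes were called. Hepatocyte markers summed to 44527 to 57051 CPM in WT, 66675 to 86957 CPM in TRPV4-KO and 65690 to 75897 CPM in GSK219. Most of this was Alb, and without it the sums were 12676 to 12891 CPM, 12586 to 12928 CPM and 12496 to 14813 CPM. Of the 5 genes 4 had negative log2 differences of WT against either group, Apoa1 had positive ones, and edgeR called none. Every marker of these lists had reads. Stellate cell and fibroblast genes summed to 658 and 476 CPM in WT, 278, 184 and 401 CPM in TRPV4-KO, and 260, 348 and 407 CPM in GSK219, an order that differed from that of Cd44 only in the place of the lowest pair, TRPV4-KO 2 and GSK219 1. Lymphocyte markers overlapped between groups, at 10.8 and 5.01 CPM in WT and 7.27 to 16.6 CPM in TRPV4-KO, and were highest in TRPV4-KO 3. In whole liver, fewer cells that carry Cd44 and less Cd44 RNA per cell cannot be told apart, and the part of these cells in the Cd44 difference was not tested.

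Ductal, macrophage and stellate cell markers were set beside Spp1. The sum of 9 ductal and tumor epithelium genes was 20.6 and 23.7 CPM in the WT livers, 10.1 to 11.0 CPM in TRPV4-KO and 11.8 to 14.4 CPM in GSK219. Sox9, a transcription factor of bile duct cells, made up 12.2 and 18.6 CPM of the WT sums. Without it the sums were 8.41 and 5.01 CPM in WT, 3.95 to 7.82 CPM in TRPV4-KO and 3.59 to 5.50 CPM in GSK219, so that WT 1 was the higher WT liver and WT 2 lay within the range of both other groups. The 5 lipid-associated macrophage genes, a set that often accompanies Spp1 in macrophages, summed to 194 and 207 CPM in WT, 48.9 to 66.9 CPM in TRPV4-KO and 63.6 to 85.2 CPM in GSK219. Most of the sum came from Fabp5 (108 and 109 CPM in WT) and Lpl (51.8 and 75.1 CPM). Of the 8 livers Fabp5, Lpl and the sum were highest in WT 2, Trem2 and Cd9 in WT 1 and Gpnmb in TRPV4-KO 2, while Spp1 was highest in WT 1. Of these genes Fabp5 was called higher in WT than in TRPV4-KO by edgeR while Gpnmb had a log2 difference of −0.17. The stellate cell and fibroblast sum given above was highest in WT 1. The part of any of these in the Spp1 levels was not tested.

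**Figure D5:**
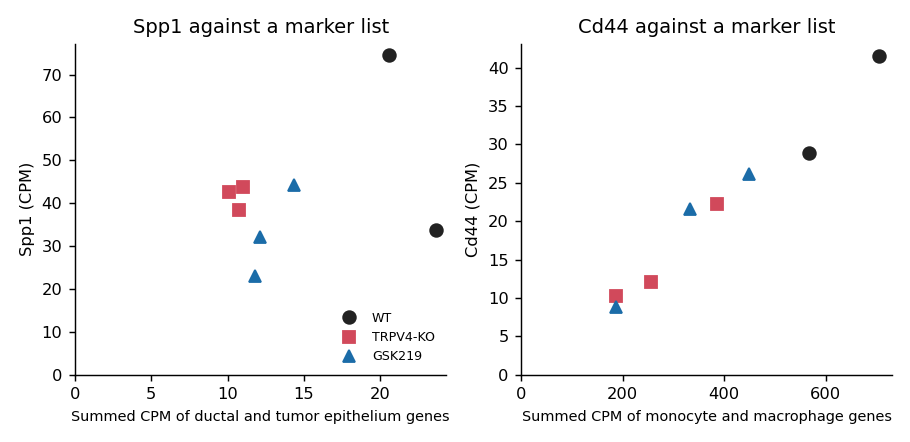
Spp1 CPM against the summed CPM of ductal and tumor epithelium genes (left) and Cd44 CPM against the summed CPM of monocyte and macrophage genes (right), 1 point per liver. On the left the WT livers, at 20.6 and 23.7 CPM of epithelial genes (12.2 and 18.6 CPM of them from Sox9), differ in Spp1 (74.5 and 33.8 CPM), and on the right Cd44 and the macrophage sum have the same order over all 8 livers.

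Levels across libraries were compared with those of all other genes as a description. Over the 8 livers the log2 level of Cd44 was most like that of Cd48 (Pearson r = 0.997), followed by Dock10, Fcgr4, Mndal and Slc28a2 (r = 0.99 for each when rounded). Cd48, a leukocyte surface protein, had 6.62 and 4.66 CPM in WT, 2.34, 1.81 and 3.88 CPM in TRPV4-KO and 1.70, 3.56 and 4.18 CPM in GSK219. Spp1 was most like Dsn1 (r = 0.94), Cdr2 (r = 0.93), Map4k1, Gm47976 and Fundc1, which are expressed at a low level, with Dsn1 at 0.566 to 1.79 CPM. Spp1 and Cd44 correlated at r = 0.60 with each other, and of the 500 genes most like each, 60 were on both lists. The livers of a group share their condition, so such values also reflect group differences.

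Over the 6 PSC libraries Spp1 was most like Slc37a3 (r = 0.999), Gsto2, Rasl10b, Gpr35 and Spred3, and Cd44 like Ece2 (r = 0.995), Casp8, Ndufb6, Mocs2 and Slc52a2. Gpr35, an orphan-type G protein-coupled receptor, had 88.5, 92.0 and 126 normalised read counts with DMSO and 270, 411 and 405 with Yoda1. Spp1 and Cd44 correlated at r = −0.72, and the lists of 500 genes most like each shared 0 genes. The libraries share their treatment in groups of 3, so such values also reflect the difference between treatments.

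Ranked per kilobase, Cd44 was the fifth of the same receptor genes over the livers, at 3.16 ± 1.63 CPM (SD, n = 8). Itgb1 (48.5 CPM), Itgb5 (29.7 CPM), Itga5 (8.35 CPM) and Itga9 (4.74 CPM) were above it and Itgav (2.98 CPM) just below, the latter within its spread. By group, Cd44 was above Itgav in WT (5.19 against 3.12 CPM) and below it in TRPV4-KO (2.19 against 2.97 CPM) and GSK219 (2.79 against 2.90 CPM), so its place was the fifth only in WT and the sixth in the other groups. Itgb6 was near 0, at 0.0075 CPM per kilobase. There were 7.39 and 4.82 Spp1 reads per Cd44 read and kilobase in the WT livers. The ratio was 13.0, 17.1 and 8.09 in TRPV4-KO and 10.6, 8.43 and 5.05 in GSK219. WT 1 and the GSK219 livers overlapped in this ratio, while both WT livers were below every TRPV4-KO liver.

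Of the 60 pathway genes 46 were tested in the livers, and edgeR called 0 of them between WT and TRPV4-KO, beside 0.291% of all genes. At an unadjusted p under 0.05 there were 16, with 13 higher in WT and 3 lower, against 17.1% of all genes. DESeq2 called 8 higher and 1 lower, beside 5.7% of all genes. The median log2 difference of the list was 0.28, beside −0.01 over all genes. Both WT livers exceeded every TRPV4-KO liver in 17 of the 46 genes (37.0%) and were below all of them in 5 (10.9%), where the shares over all genes were 17.7% and 15.5%. Without TRPV4-KO 3, edgeR called 10 of 45 tested genes of the list higher and 2 lower, beside 5.02% and 3.62% of all genes.

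The genes with the smallest p-values came from several roles, namely ligands, a sheddase, promoter factors and enzymes, with the linkers after them. Mif had 53.4 and 71.0 CPM in WT and 117, 121 and 93.2 CPM in TRPV4-KO, a log2 difference of −0.83 (SE 0.17, adjusted p = 0.099, edgeR). Vcan had 1.67 and 2.27 CPM in WT and 0.569, 0.324 and 0.463 CPM in TRPV4-KO, a log2 difference of 2.11 (SE 0.44, adjusted p = 0.10, edgeR). It had 27 and 39 counts in WT and 4 to 9 in the other livers. Vcan thus reached the test through the WT livers alone, and nothing is read from its direction. Adam10, the main sheddase of the CD44 ectodomain, had 57.5 and 51.8 CPM against 37.7, 35.6 and 37.1 CPM (log2 difference 0.57, SE 0.13, adjusted p = 0.12, edgeR). In each of these the groups were apart. Mmp9, a gelatinase that cleaves osteopontin and binds CD44, had 5.63 and 6.35 CPM against 0.506, 1.23 and 2.08 CPM (log2 difference 2.22, SE 0.55, adjusted p = 0.13, edgeR), and neutrophils are a known source of it. Mmp12, the macrophage elastase, had 4.70 and 1.28 CPM against 0.379, 0.324 and 0.868 CPM, a log2 difference of 2.48 (SE 0.67, adjusted p = 0.15, edgeR). Srgn, the leukocyte proteoglycan serglycin, had a log2 difference of 0.98 (SE 0.29), Ezr of 0.76 (SE 0.21), Msn of 1.00 (SE 0.36) and Rdx, the main such linker of hepatocytes, of −0.37 (SE 0.13).

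Of the osteopontin-binding integrins, the most abundant members Itgb1 and Itgb5 had log2 differences of −0.01 (SE 0.12) and 0.28 (SE 0.16), and Itga4 had the largest of the 8 tested, 1.13 (SE 0.56). Of factors that bind the Spp1 promoter, Vdr had 3.59 and 1.11 CPM in WT and 0.0632 to 0.463 CPM in TRPV4-KO, and Fos 3.84 and 7.46 CPM against 1.20 to 2.03 CPM, both at an adjusted p of 0.12 by edgeR. Vdr, with 58 and 19 counts in WT and 1 to 9 in the other livers, likewise reached the test through WT alone. Esrra was lower in WT (log2 difference −0.76, SE 0.24, adjusted p = 0.19, edgeR). Of the hyaluronan genes Stab2, the scavenger receptor of sinusoidal endothelium, had 160 and 143 CPM in WT and 89.1 to 135 CPM in TRPV4-KO. Has2, which fell in the PSCs, had at most 0.0579 CPM in any liver and could not be compared. The 4 other genes of the osteopontin family had 0 counts in every liver.

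Between WT and GSK219, edgeR called 0 of the 46 genes and 0% of all genes. At an unadjusted p under 0.05 there were 10 genes of the list, 9 higher in WT and 1 lower, against 8.22% of all genes, and DESeq2 called Adam10 and Vcan higher, beside 0.801% of all genes. Vcan had a log2 difference of 2.33 (SE 0.45), Adam10 of 0.57 (SE 0.13) and Mif of −0.64 (SE 0.17). Vcan, as above, reached the test through the WT livers alone. Both WT livers were above every GSK219 liver in 11 of the 46 genes (23.9%) and below in 2 (4.35%), with 15.6% and 11.7% over all genes. Between TRPV4-KO and GSK219, edgeR called 0 of the 46, beside 0.106% of all genes. There 3 genes had an unadjusted p under 0.05, against 6.12% of all genes, and DESeq2 called 0, beside 0.902%. The 3 were Runx2 and Fos, lower in TRPV4-KO, and Esrra, higher in TRPV4-KO.

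The neighbourhood of Spp1 was examined because Trpv4, the deleted gene, lies on the same chromosome, 10.2 Mb away. Of 19 genes within 1 Mb of Spp1 tested in the livers, 2 were called between WT and TRPV4-KO, where 0.291% of all genes were. These were Hsd17b13 and Hsd17b11, enzymes of hepatocyte lipid droplets 458 kb and 413 kb from Spp1, which were lower in WT by log2 differences of −1.35 (SE 0.15, adjusted p = 0.011, edgeR) and −1.05 (SE 0.15, adjusted p = 0.039, edgeR) and are named after their values were seen. Between WT and GSK219 edgeR called no gene at all, so that comparison says nothing of this region. Between TRPV4-KO and GSK219 it called 0 of the 19 neighbours, beside 0.106% of all genes. In the PSCs, where 1.2% of all genes were called higher and 1.15% lower, 1 of 13 tested neighbours was called, Gbp9, 637 kb away, with a log2 difference of 1.01 (SE 0.13, adjusted p = 0.031, limma), likewise named after its values were seen. Near Cd44, 0 of 14 genes were called by edgeR in the livers and 0 of 16 by limma in the PSCs.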

How the data were processed

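RNA-Seq of 8 mouse livers and 6 PSC libraries was used. For the livers the authors deposited counts of reads per gene, without normalization, with GRCm38 coordinates, and 7 further columns that no sample label matches were left out. The PSC values the authors deposited are a signal, found here to be gene counts divided by a size factor per library (100% of 98886 values were whole reads within 0.01), beside their own fold changes, standard errors, test scores and p-values, which were not used. The submitters' processing notes name HISAT2 2.0.5 and Trim Galore, with no role given. The counting tool is not given in the sources used here.

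Liver counts were fitted with edgeR 4.0.16 (R 4.3.3; TMM, filter with a minimum count of 10, robust quasi-likelihood fit of all 8 livers, 15118 genes). PSC values, being a normalised signal, were fitted with limma 3.58.1 on log2(value + 1), for the 15145 genes that reached 10 in 3 or more libraries. A fold change of a low gene is understated on that scale. A gene was called at a Benjamini-Hochberg adjusted p under 0.05 over all genes tested. Replicates are separate animals or preparations. PSC numbers mark shared preparations, as the column names show, and deviations of same-numbered libraries correlated at 0.43, 0.26 and 0.53. Liver numbers come from the labels, which name no shared litter or batch. TRPV4-KO and GSK219 livers of 1 number correlated at 0.29, 0.15 and 0.58, while the WT livers did not pair with either group.

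Alternatives were DESeq2 1.42.0, another normalisation, no filter, pseudocounts of 0.1 and 10, only the groups compared, a sex term, a replicate block, edgeR on the recovered PSC reads, a log2 fold threshold of 1 and leaving out each library. The members and the lists of pathway and marker genes were chosen with earlier results of these data known. Of the pathway list, every gene called in the fits as reported is named, with up to 12 of the smallest p in a comparison. The text also names the most abundant members of each role, and the 5 genes most correlated with each member. Has1, Tnfaip6, Gli1, Runx2, Fos, Stab2, Msn and the genes near Spp1 fall partly outside this rule and were named after their values were seen. The scripts were tested on simulated data. Reads carry no molecular identifiers, so statements on counting error cover counting only.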

Additional observations from a re-analysis of the deposited data

Results flagged for a closer look

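Spp1 is listed here because its WT and TRPV4-KO livers moved in opposite directions in the livers of each sex. In livers with Xist reads the log2 difference of WT minus TRPV4-KO was 0.77 (1 liver against 1), and in livers with Y-linked reads it was −0.25 (1 against 2). The difference between the 2 values was not tested.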

How the results depend on the processing

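Groups held 2 or 3 libraries, and no alternative varied the depth. For the pathway list in PSCs, the number called higher was 0 as reported, 2 with edgeR on recovered reads, 6 with edgeR on recovered reads and a replicate block (an alternative chosen after seeing the data), 1 with a pseudocount of 10 and 2 with the replicate block. The number called lower was 3 as reported, 14 with edgeR and the block, and 0 with a log2 fold threshold of 1. Over all genes, edgeR with the block called 1391 higher and 1344 lower of 15220, and the fit as reported 181 and 174 of 15145. EdgeR without the block called 341 and 351, a pseudocount of 10 gave 246 and 232, and limma with the block 319 and 286. The list's number called lower ranged from 0 to 2 when 1 library was left out. Over all genes 0 to 50 were called higher and 0 to 65 lower in those fits. Has2, Mmp14 and Tgm2 kept log2 differences of −0.54 to −0.48, −0.94 to −0.78 and −0.83 to −0.71 then, where fewer samples were fitted. Between WT and TRPV4-KO livers the list had 0 genes called higher and 0 lower as reported. DESeq2 gave 8 and 1, no filter on low counts 2 and 1, the replicate block 4 and 1, and a sex term 6 and 1. Counts over all genes rose too, from 25 higher and 19 lower as reported to 483 and 343 with DESeq2, 124 and 74 with no filter, 394 and 137 with the block and 347 and 188 with the sex term. Leaving out 1 liver gave 0 to 10 higher and 0 to 2 lower, the highest of both without TRPV4-KO 3. Between WT and GSK219 DESeq2 gave 2 higher against 0. The causes of these changes were not tested. The log2 difference of Spp1 ranged from −0.28 to 0.86 between WT and TRPV4-KO and from 0.026 to 1.17 between WT and GSK219 when 1 liver was left out. Deviations of same-numbered livers of WT and the other groups correlated at −0.43 and 0.55 against TRPV4-KO and −0.48 and 0.30 against GSK219. With 2 WT livers these values cannot decide whether the livers pair. Between TRPV4-KO and GSK219 the block changed no call of the list, with 0 higher and 0 lower. The Spp1 and Cd44 differences in PSCs and those of Cd44 in livers kept their direction under every alternative run for them.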
